A study of Mus musculus with 8 samples.

Results

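The genes described here are 39 mouse genes of the type I interferon response, chosen by name as a list of interferon receptors, interferon-responsive transcription factors and interferon-induced antiviral genes. Of these, 38 were among the 17495 genes listed for all sorted OT-I cells, where Mx1 is not listed, and 37 were among the 13126 rows listed for Tim-3+ OT-I cells, where Oas2 and Ifi44 are not listed. OT-I cells are CD8 T cells whose transgenic receptor recognises a peptide of ovalbumin, the antigen made by the mouse melanoma line B16-OVA. Naive OT-I cells without Zbtb32, a zinc finger transcription factor, and wild-type OT-I cells were put together into B6 mice, and B16-OVA cells were placed under the skin 1 day later. On day 30 after implantation polyadenylated RNA was measured in 4 groups of 2 libraries each, namely KO-labelled and WT-labelled cells of the whole sorted OT-I population and KO-labelled and WT-labelled cells of its Tim-3+ subset, which the labels name Ttex and Terminal; Ttex is the field's term for terminally exhausted T cells. All 4 groups carry the OT-I receptor and come from the same kind of recipient, and the age of the mice, the number of mice and any pooling of mice are not given in the sources. Nothing ties the replicates to separate animals, so a p-value rests only on spread between these libraries, which may be technical.

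Type I interferons bind a receptor made of IFNAR1 and IFNAR2, whose kinases JAK1 and TYK2 phosphorylate STAT proteins. STAT2 and IRF9 are parts of ISGF3, a complex that binds interferon-stimulated response elements and switches on genes whose products detect, tag or block viruses. In CD8 T cells the same pathway supports priming and clonal expansion, and persistent interferon signalling is known to accompany T cell exhaustion.

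In all sorted OT-I cells 10 of the 33 members tested were called lower in KO-labelled libraries and 0 higher. That share, 30.3%, is next to the 30.4% of all 9574 tested genes that were called lower (2.45% were called higher), so the module as a whole did not stand apart from the rest of the genes. A call is an adjusted p under 0.05 in limma, fitted over all genes on log2(value + 1), and a gene was tested when its mean was at least 1 FPKM, or at least 10 normalized counts in Ttex cells. In all sorted cells that fit used the spread of genes at the same level and not a gene's own spread between libraries. The exceptions in size were the neighbouring genes Ifitm1, Ifitm2 and Ifitm3, for membrane proteins that block the entry of enveloped viruses, whose log2 fold changes of -1.20, -1.46 and -1.64 were the 178th, 69th and 34th lowest of the 9574. In Ttex cells 0 of 37 members were called (0.0239% of all genes were), and the mean values of the 3 IFITM genes were higher in the KO-labelled libraries.

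The library totals bear on every value below. Whole reads recovered from the tables came to 18527451 to 21013158 per library of all sorted cells and 51635441 to 59177948 per library of Ttex cells. The deposited FPKM of all sorted cells divide by 1.125 and 1.255 times the recovered reads in KO-labelled libraries and by 0.964 and 0.953 times in WT-labelled libraries, and the median log2 fold change of all tested genes was -0.24. The member median was -0.28, and 7 of the 33 were positive. With each library centred on its median gene, the calls over all genes turned from 235 higher and 2909 lower to 1027 higher (10.7%) and 1141 lower (11.9%), and those among members to 2 higher, Ifnar1 and Cmpk2, and 3 lower, Ifitm1, Ifitm2 and Ifitm3. Zbtb32 RNA was not lower under the KO label, at 94.9 and 73.0 FPKM in the KO-labelled libraries, against 79.8 and 87.1 FPKM in the WT-labelled libraries of all sorted cells, and at 6822 and 5715 normalized counts in the KO-labelled libraries, against 3976 and 3951 normalized counts in the WT-labelled libraries of Ttex cells. The sources used here do not give the deleted part of the gene, so these values do not check the labels, and every direction is that of the label. The CD8 T cell genes Cd8a and Cd3e were high in all libraries, at 303 to 418 and 92.2 to 143 FPKM in all sorted cells. Of 8 CD8 T cell genes tested there, 2 were called lower and 0 higher (30.4% and 2.45% of all genes were). In Ttex cells 0 of 10 were called. Their sum was 707430 and 599164 normalized counts in KO-labelled Ttex libraries, against 554215 and 500659 in WT-labelled libraries.

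Genes of macrophages, monocytes and dendritic cells were also present, and most of them moved with the label. In all sorted cells 15 of the 17 tested markers were called lower and 0 higher (30.4% and 2.45% of all genes were). The summed level of the 24 listed markers was 464.9 and 401.3 FPKM in the KO-labelled libraries, against 1002 and 929.7 FPKM in the WT-labelled libraries. In Ttex cells 0 of 23 were called (0.0239% of all genes were). There 19 lay higher in both KO-labelled libraries than in both WT-labelled libraries (19.9% of all genes did). Only 1, Cd14, lay lower in both (28.2% of all genes did). The Ttex marker sum was 106185 and 94145 normalized counts in the KO-labelled libraries, against 46160.0 and 42455 in the WT-labelled libraries. No listed marker was at 0 in all 4 libraries of all sorted cells. Ttex values cannot be 0, since 1 was apparently added to each count, and Cd163 is not listed for Ttex cells. The defining genes C1qa, Lyz2 and Csf1r were at 8.56 and 7.32 against 36.3 and 35.6, 26.4 and 19.1 against 78.3 and 72.0 and 0.629 and 0.887 against 1.42 and 2.25 FPKM (KO-labelled against WT-labelled libraries of all sorted cells). Most listed genes of melanoma cells and of red blood cells were higher under the KO label in both populations. Of those tested in all sorted cells, 5 of 7 melanoma genes and 4 of 4 red blood cell genes were called higher (2.45% of all genes were), with the melanoma gene Mlana called lower. The summed melanoma genes were at 25.8 and 24.0 FPKM in the KO-labelled libraries, against 14.8 and 19.0 FPKM in the WT-labelled libraries. In Ttex cells all 13 melanoma and all 5 red blood cell genes listed lay higher in both KO-labelled libraries than in both WT-labelled libraries (19.9% of all genes did). Their median log2 fold changes were 1.08 and 2.32, and Pmel, a melanosome gene, was called. The Ttex sums were 72515 and 75894 normalized counts in KO-labelled against 34953 and 36559.6 in WT-labelled libraries for melanoma genes, and 17857 and 10643 in KO-labelled against 3412 and 2138 in WT-labelled libraries for red blood cell genes. The part of these cells' RNA in the results below was not tested. In such sorted bulk samples, fewer cells of a type and less RNA per cell cannot be told apart.

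Neither receptor gene was called in all sorted or in Ttex cells (32.8% and 0.0239% of all genes were). Ifnar1, the low-affinity chain of the receptor, was at 29.2 and 30.1 FPKM in the KO-labelled libraries, against 20.05 and 27.0 FPKM in the WT-labelled libraries of all sorted cells. The labels did not overlap and the KO-labelled values were higher, but the gene was not called (log2 fold change 0.34, SE 0.21, limma adjusted p = 0.206). As the most positive member there, it was called higher after centring (log2 fold change 0.59, limma adjusted p = 0.0165). Against this, Ifnar1 in Ttex cells was at 5636 and 6356 normalized counts in the KO-labelled libraries, against 7608 and 7762 normalized counts in the WT-labelled libraries, with the KO-labelled values lower (log2 fold change -0.36, SE 0.12, limma adjusted p = 0.294). Ifnar2, the high-affinity chain, was at 10.5 and 8.80 FPKM in the KO-labelled libraries, against 9.65 and 10.1 FPKM in the WT-labelled libraries of all sorted cells, and at 3324 and 2756 normalized counts in the KO-labelled libraries, against 3257 and 2814 normalized counts in the WT-labelled libraries of Ttex cells. Those values overlapped in both populations, with log2 fold changes of -0.03 and -0.00.

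Of the 3 transcription factors, 0 were called in all sorted or in Ttex cells (32.8% and 0.0239% of all genes were). Irf9, the DNA-binding part of ISGF3, was at 13.1 and 10.9 FPKM in the KO-labelled libraries, against 12.6 and 13.0 FPKM in the WT-labelled libraries of all sorted cells, and its log2 fold change in Ttex cells was -0.00. Irf7, which amplifies interferon production once induced, was at 8.75 and 7.27 FPKM in the KO-labelled libraries, against 8.38 and 8.86 FPKM in the WT-labelled libraries of all sorted cells and overlapped between the labels. In Ttex cells Irf7 had a log2 fold change of 0.04. Stat2, the interferon-specific STAT of ISGF3, was at 1422 and 1406 normalized counts in the KO-labelled libraries, against 1723 and 2103 normalized counts in the WT-labelled libraries of Ttex cells, without overlap (log2 fold change -0.43, limma unadjusted p = 0.0365, adjusted p = 0.325). In all sorted cells Stat2 overlapped, at 5.11 and 6.15 FPKM in the KO-labelled libraries, against 4.22 and 6.23 FPKM in the WT-labelled libraries.

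Among the 4 sensors of foreign nucleic acid only Zbp1 was called in all sorted cells, lower (30.4% of all genes were). In Ttex cells 0 of the 4 were called (0.0239% of all genes were). Zbp1, which senses Z-form nucleic acid and can start necroptosis, was at 12.4 and 11.5 FPKM in the KO-labelled libraries, against 18.7 and 16.8 FPKM in the WT-labelled libraries (log2 fold change -0.54, SE 0.19, limma adjusted p = 0.0214). Its KO-labelled values were lower and did not overlap those of WT-labelled libraries. The call was lost without KO-labelled replicate 2 (limma adjusted p = 0.120), without WT-labelled replicate 1 (0.246) and without WT-labelled replicate 2 (0.0729). In Ttex cells Zbp1 was at 5412 and 4257 normalized counts in the KO-labelled libraries, against 5139 and 4408 normalized counts in the WT-labelled libraries, overlapping, with a log2 fold change of 0.01. The difference between the populations was not called, at 0.55 (SE 0.23, limma adjusted p = 0.137). The RNA sensor genes Ddx58 (RIG-I), Ifih1 (MDA5) and Dhx58 (LGP2) had log2 fold changes of -0.03, 0.03 and 0.11 in all sorted cells and of -0.31, 0.04 and -0.09 in Ttex cells. All of them overlapped between the labels in both populations.

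Isg15 encodes a ubiquitin-like protein that is attached to other proteins after interferon exposure. It was at 4.04 and 2.88 FPKM in the KO-labelled libraries, against 6.70 and 5.04 FPKM in the WT-labelled libraries of all sorted cells, lower without overlap (log2 fold change -0.63, SE 0.17, limma adjusted p = 0.00118). Its call was lost without KO-labelled replicate 2 (limma adjusted p = 0.144) and without WT-labelled replicate 1 (limma adjusted p = 0.113). In Ttex cells Isg15 was at 773 and 490.3 normalized counts in the KO-labelled libraries, against 520.0 and 409.7 normalized counts in the WT-labelled libraries, overlapping, with a log2 fold change of 0.41. Herc6, the main ISG15 ligase of mice, was at 0.953 and 1.12 FPKM in the KO-labelled libraries, against 1.46 and 1.52 FPKM in the WT-labelled libraries of all sorted cells, and at 966 and 1141 normalized counts in the KO-labelled libraries, against 1357 and 1607 normalized counts in the WT-labelled libraries of Ttex cells. Both pairs were lower under the KO label without overlap, and neither was called (log2 fold changes -0.29 and -0.49, limma adjusted p = 0.0981 and 0.316). Usp18, the protease that removes ISG15 and also damps receptor signalling, had log2 fold changes of -0.20 and -0.36 and overlapped in both populations.

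The IFIT and OAS genes, among the most strongly interferon-induced genes in many cells, were low in all sorted OT-I cells. Oasl1, Oasl2 and Oas2 had means under 1 FPKM and were not tested there. Of the 4 tested, 0 were called (32.8% of all genes were). Ifit1 and Ifit3, whose products bind foreign RNA ends, were at 1.298 and 1.13 FPKM in the KO-labelled libraries, against 1.03 and 1.60 FPKM in the WT-labelled libraries for Ifit1. For Ifit3 the values were 2.002 and 1.504 FPKM in the KO-labelled libraries, against 2.40 and 2.55 FPKM in the WT-labelled libraries, lower without overlap and not called (log2 fold change -0.34, SE 0.15, limma adjusted p = 0.0641). In Ttex cells Ifit3 was instead higher without overlap, at 385 and 496 normalized counts in the KO-labelled libraries, against 379 and 269 normalized counts in the WT-labelled libraries (log2 fold change 0.45, limma adjusted p = 0.503). Oas1a, a synthetase of the signal molecule that activates RNase L, was lower without overlap in both populations, at 3.95 and 3.24 FPKM in the KO-labelled libraries, against 5.02 and 4.05 FPKM in the WT-labelled libraries of all sorted cells. Its Ttex values were 437 and 484 normalized counts in the KO-labelled libraries, against 607 and 579 normalized counts in the WT-labelled libraries (log2 fold changes -0.27 and -0.36, neither called). Oasl2 had the fifth-highest log2 fold change of the members in Ttex cells, 0.57, with 140.1 and 197 normalized counts in the KO-labelled libraries, against 130.0 and 95.1 normalized counts in the WT-labelled libraries. Ifit3 and Oas1a have close paralogues whose reads the counting may have split, so their levels are uncertain.

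Of the antiviral effector genes 2 of 5 tested were called lower in all sorted cells (30.4% of all genes were). In Ttex cells 0 of 7 were called (0.0239% of all genes were). Rtp4, whose product limits viral RNA replication, was at 2.40 and 2.54 FPKM in the KO-labelled libraries, against 5.12 and 3.33 FPKM in the WT-labelled libraries of all sorted cells, lower without overlap (log2 fold change -0.57, SE 0.16, limma adjusted p = 0.00221). Its Ttex values were 602 and 775 normalized counts in the KO-labelled libraries, against 391.9 and 348 normalized counts in the WT-labelled libraries, higher without overlap (log2 fold change 0.89, SE 0.24, limma adjusted p = 0.258). The call in all sorted cells was lost without WT-labelled replicate 1 (log2 fold change -0.32, limma adjusted p = 0.287). Samd9l, an interferon-induced inhibitor of translation, was called lower in all sorted cells although its values overlapped, at 2.86 and 6.34 FPKM in the KO-labelled libraries, against 6.16 and 7.62 FPKM in the WT-labelled libraries (log2 fold change -0.56, SE 0.17, limma adjusted p = 0.00527). Without KO-labelled replicate 1 the log2 fold change was -0.10 (limma adjusted p = 0.780), and the call was also lost without WT-labelled replicate 2 (-0.43, limma adjusted p = 0.122), without a filter on low values (0.0855), with edgeR and DESeq2 on recovered reads (edgeR adjusted p = 0.167, DESeq2 adjusted p = 0.601) and in the authors' deposited table (0.552). In Ttex cells Samd9l was at 1143 and 1210.1 normalized counts in the KO-labelled libraries, against 1448 and 1816 normalized counts in the WT-labelled libraries, lower without overlap and not called (log2 fold change -0.46, limma adjusted p = 0.327).

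Eif2ak2, the kinase PKR that halts translation on double-stranded RNA, had the most negative log2 fold change of the members in Ttex cells. The Ttex values were 1042 and 1489 normalized counts in the KO-labelled libraries, against 1572 and 2195 normalized counts in the WT-labelled libraries, lower without overlap and not called (log2 fold change -0.58, SE 0.24, limma adjusted p = 0.354). Its values in all sorted cells were 3.98 and 3.88 FPKM in the KO-labelled libraries, against 4.99 and 5.25 FPKM in the WT-labelled libraries, also lower without overlap (log2 fold change -0.31). Cmpk2, a mitochondrial nucleotide kinase gene next to Rsad2, was at 2.37 and 1.75 FPKM in the KO-labelled libraries, against 1.305 and 2.02 FPKM in the WT-labelled libraries of all sorted cells, overlapping, and was the second most positive member there (0.21). After centring it was called higher (log2 fold change 0.46, limma adjusted p = 0.0258). Rsad2, the gene of viperin, had a mean under 1 FPKM in all sorted cells, and its Ttex values were 218 and 311 normalized counts in the KO-labelled libraries, against 187 and 199.7 normalized counts in the WT-labelled libraries. The KO-labelled values lay just above the others (log2 fold change 0.42, limma adjusted p = 0.551). Mx1, a dynamin-like antiviral GTPase, was at 884 and 786 normalized counts in the KO-labelled libraries, against 997 and 907 normalized counts in the WT-labelled libraries of Ttex cells, and Trim30a, a ubiquitin ligase gene with close paralogues, was at 13.8 and 14.2 FPKM in the KO-labelled libraries, against 17.6 and 18.6 FPKM in the WT-labelled libraries of all sorted cells. Neither was called, with log2 fold changes of -0.19 and -0.35. Ifi44 was under 1 FPKM in all 4 libraries of all sorted cells.

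**Figure D1:**
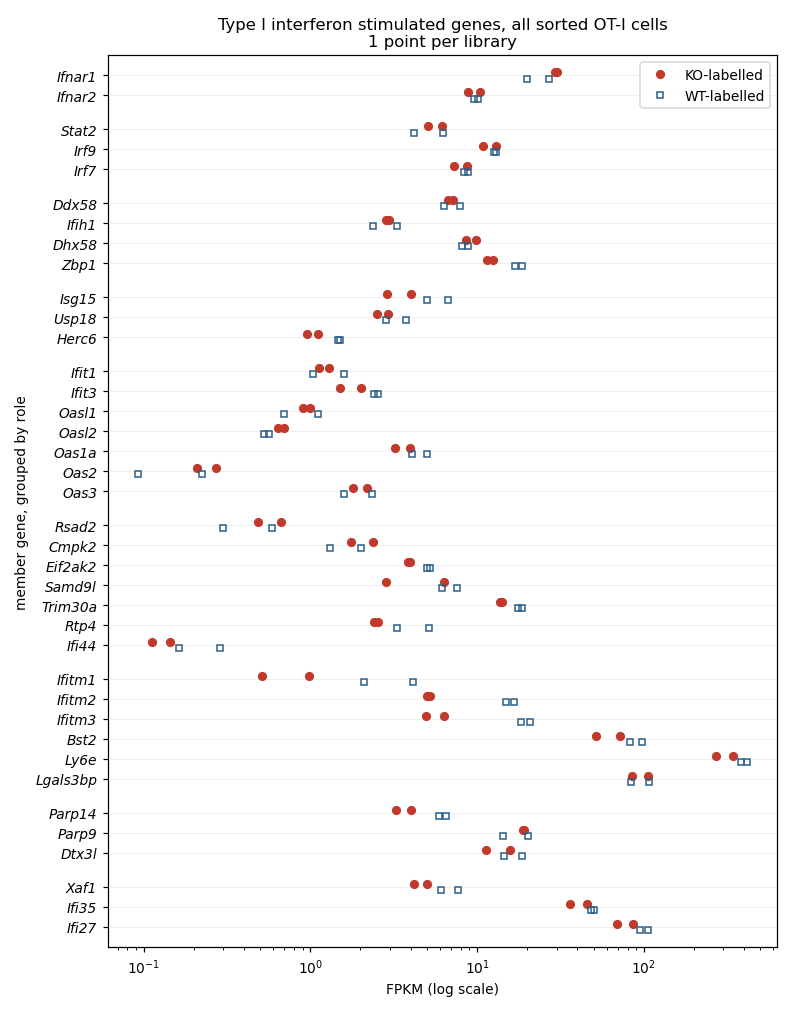
Level of each member (rows, grouped by role) in the 4 libraries of all sorted OT-I cells, in FPKM on a log axis, with filled circles for KO-labelled and open squares for WT-labelled libraries. Ifitm1, Ifitm2 and Ifitm3 show the widest gaps, with Ifitm3 at 6.32 and 4.95 against 20.8 and 18.4 FPKM (KO-labelled against WT-labelled), and most other members lie close together.

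The 3 IFITM genes had the largest differences of the module in all sorted cells, and Bst2 was called lower with them. The 3 IFITM genes lie side by side on chromosome 7 (mm10, GENCODE M21: Ifitm2 at 140954837 to 140955987 on the minus strand, Ifitm1 at 140967221 to 140969825 on the plus strand and Ifitm3 at 141009586 to 141010770 on the minus strand). Bst2, or tetherin, which holds budding virions on the cell surface, lies on chromosome 8 from 71534255 to 71537456 on the minus strand. The stretch around the start of a gene is where interferon-stimulated response elements are usually found, so the RefSeq windows of 250 bases before to 50 after the annotated start (GRCm38.p6) are shown for these 4 genes, and for Isg15 and Ifit1 as typical interferon-induced genes. Capitals mark each match, on either strand, to the core of the element, which is GAAA, any 2 bases and GAAA again, and overlapping matches are merged into a single run.
Ifitm1: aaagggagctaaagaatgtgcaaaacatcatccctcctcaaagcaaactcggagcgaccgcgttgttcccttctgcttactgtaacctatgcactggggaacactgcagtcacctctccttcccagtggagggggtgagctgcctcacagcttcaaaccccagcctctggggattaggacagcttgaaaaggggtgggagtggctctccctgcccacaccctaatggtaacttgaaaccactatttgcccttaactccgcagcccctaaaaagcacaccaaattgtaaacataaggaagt
Ifitm2: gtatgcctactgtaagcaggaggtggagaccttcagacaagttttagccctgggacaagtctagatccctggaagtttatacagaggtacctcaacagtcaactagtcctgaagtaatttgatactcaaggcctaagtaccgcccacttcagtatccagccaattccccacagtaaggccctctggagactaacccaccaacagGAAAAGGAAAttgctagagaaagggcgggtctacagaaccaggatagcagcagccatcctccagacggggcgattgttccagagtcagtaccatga
Ifitm3: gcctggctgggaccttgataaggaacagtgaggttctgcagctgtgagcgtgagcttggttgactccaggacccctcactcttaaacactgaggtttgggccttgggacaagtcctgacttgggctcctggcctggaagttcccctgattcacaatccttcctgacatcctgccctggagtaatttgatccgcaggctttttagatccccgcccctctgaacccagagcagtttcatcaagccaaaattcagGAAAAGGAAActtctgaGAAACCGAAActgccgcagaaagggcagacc
Bst2: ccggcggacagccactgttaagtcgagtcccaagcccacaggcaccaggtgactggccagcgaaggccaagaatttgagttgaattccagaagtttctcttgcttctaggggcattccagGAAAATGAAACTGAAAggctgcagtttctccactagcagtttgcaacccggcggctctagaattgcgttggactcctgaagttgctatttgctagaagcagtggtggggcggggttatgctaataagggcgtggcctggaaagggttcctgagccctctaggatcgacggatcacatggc
Isg15: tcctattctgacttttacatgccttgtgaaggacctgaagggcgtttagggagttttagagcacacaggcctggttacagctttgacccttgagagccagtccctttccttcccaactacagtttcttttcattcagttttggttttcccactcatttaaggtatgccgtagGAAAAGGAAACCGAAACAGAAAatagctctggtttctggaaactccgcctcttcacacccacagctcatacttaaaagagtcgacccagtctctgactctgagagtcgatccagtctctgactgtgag
Ifit1: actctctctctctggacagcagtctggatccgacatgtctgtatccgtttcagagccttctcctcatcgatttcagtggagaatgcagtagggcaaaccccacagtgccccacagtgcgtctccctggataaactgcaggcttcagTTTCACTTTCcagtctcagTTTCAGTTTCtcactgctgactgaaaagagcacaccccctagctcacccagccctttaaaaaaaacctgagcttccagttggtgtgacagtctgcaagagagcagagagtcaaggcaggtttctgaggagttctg
Ifitm1 (chr7:140967826-140968125, plus strand) had 0 matches. Its window lies wholly inside the GENCODE gene, which begins at 140967221, so the sequence before that start was not searched. Ifitm2 (chr7:140955912-140956211, minus strand) had 1, beginning at -46, where 0 is the first transcribed base, and Ifitm3 (chr7:141010695-141010994, minus strand) had 2, beginning at 2 and 19. Bst2 (chr8:71537423-71537722, minus strand) and Ifit1 (chr19:34640639-34640938, plus strand) had 2 each, and Isg15 (chr4:156200769-156201068, minus strand) had 3 that overlap each other.

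RefSeq windows were matched by symbol for 29 of the 39 members, and 14 of those 29 (48.3%) held the GAAA pair, 6 of them more than once, against 3.99% of the 27025 genes with a window. Among the members called lower in all sorted cells 4 of the 7 with a window (57.1%) held the GAAA pair, as did 9 of the 18 tested and not called. A match describes the letters and is no evidence of binding, and the 0 matches of Ifitm1 say only that these letters are not in that window. Rtp4, Zbp1, Parp14, Parp9, Ifi27, Ly6e, Usp18, Oas2, Mx1 and Dhx58 had no matched window.

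Ifitm3, the IFITM family member best known for blocking influenza virus entry, was at 6.32 and 4.95 FPKM in the KO-labelled libraries, against 20.8 and 18.4 FPKM in the WT-labelled libraries of all sorted cells. Both KO-labelled values were far below both WT-labelled values (log2 fold change -1.64, SE 0.19, limma adjusted p = 2.86e-16). Ifitm2 followed the same order, at 5.19 and 4.99 FPKM in the KO-labelled libraries, against 16.6 and 14.9 FPKM in the WT-labelled libraries (log2 fold change -1.46, SE 0.18, limma adjusted p = 1.48e-13). Ifitm1 was lower in level, at 0.979 and 0.511 FPKM in the KO-labelled libraries, against 4.11 and 2.10 FPKM in the WT-labelled libraries (log2 fold change -1.20, SE 0.15, limma adjusted p = 1.48e-14). For these all-sorted libraries limma's SE is that of genes at the same level and not the gene's own spread. Ifitm2 and Ifitm3 were called lower under all 14 alternatives tried, and Ifitm1 under all 13 in which it was tested. The authors' deposited table gives log2 fold changes of -1.74, -1.57 and -2.02 for Ifitm3, Ifitm2 and Ifitm1, with adjusted p = 8.22e-08, 6.15e-06 and 0.00264. By the adjusted p of the authors' deposited table, 5 of 38 members were called lower (13.0% of all its genes were) and 0 higher (4.25%), and the members beside the IFITM genes are Parp14 and Zbp1.

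In Ttex cells the mean values of the IFITM genes were higher in KO-labelled libraries. Ifitm3 was at 2388 and 1703 normalized counts in the KO-labelled libraries, against 1015 and 786 normalized counts in the WT-labelled libraries, without overlap (log2 fold change 1.17, SE 0.23, limma adjusted p = 0.182), and had the most positive value there. Ifitm2 was at 2018 and 1381 normalized counts in the KO-labelled libraries, against 1079 and 1029 normalized counts in the WT-labelled libraries, also without overlap (log2 fold change 0.66, SE 0.22, limma adjusted p = 0.29). Ifitm1 was at 869.5 and 432 normalized counts in the KO-labelled libraries, against 433 and 211 normalized counts in the WT-labelled libraries, where the lower KO-labelled library and the higher WT-labelled library nearly coincide (log2 fold change 1.02, SE 0.46, limma adjusted p = 0.375). None of the 3 was called by limma without a replicate block, whereas DESeq2 on recovered reads called Ifitm3 (log2 fold change 1.23, DESeq2 adjusted p = 0.000139).

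Bst2 was at 72.5 and 51.7 FPKM in the KO-labelled libraries, against 97.6 and 82.8 FPKM in the WT-labelled libraries of all sorted cells, lower without overlap and just past the threshold (log2 fold change -0.55, SE 0.22, limma adjusted p = 0.0452). That call was lost without KO-labelled replicate 2 (limma adjusted p = 0.405), without WT-labelled replicate 1 (0.472) and without WT-labelled replicate 2 (0.165). In Ttex cells Bst2 was at 4269.9 and 3821 normalized counts in the KO-labelled libraries, against 3356 and 2560.1 normalized counts in the WT-labelled libraries, higher without overlap and not called (log2 fold change 0.46, SE 0.17, limma adjusted p = 0.31). Most macrophage, monocyte and dendritic cell markers moved with these 4 genes, lower in all sorted and higher in Ttex KO-labelled libraries. Ifitm1, Ifitm2, Ifitm3 and Bst2 are also expressed in myeloid cells. The summed CD8 T cell genes were likewise lower in all sorted and higher in Ttex KO-labelled libraries. The melanoma and red blood cell genes were higher in Ttex KO-labelled libraries too. The part of each of these was not tested. As a share of the marker sum, chosen as a measure after the values were seen, the genes did not go one way. Among all sorted cells Ifitm1 was at 0.211% and 0.127% of that sum in KO-labelled libraries against 0.411% and 0.226% in WT-labelled libraries, Ifitm2 at 1.12% and 1.24% in KO-labelled against 1.66% and 1.60% in WT-labelled libraries, and Ifitm3 at 1.36% and 1.23% in KO-labelled against 2.07% and 1.98% in WT-labelled libraries. Those 3 shares were lower under the KO label without overlap, whereas the Bst2 share was higher, at 15.6% and 12.9% in KO-labelled libraries against 9.75% and 8.91% in WT-labelled libraries. Abundant markers weigh most in the sum, so a share depends on the markers chosen. Over the 17 tested markers of all sorted cells the KO-labelled over WT-labelled ratio of means ran from 0.185 for C1qc to 0.946 for Itgax. It was 0.708 for Cd14, which like Itgax was not called. Among the called markers it was 0.558 for Cst3, 0.449 for Cd74, 0.303 for Lyz2 and 0.221 for C1qa. For Ifitm1, Ifitm2 and Ifitm3 that ratio was 0.240, 0.324 and 0.288. In Ttex cells the Ifitm3 share was 2.25% and 1.81% in KO-labelled libraries against 2.20% and 1.85% in WT-labelled libraries, and that of Ifitm1 was 0.819% and 0.459% in KO-labelled against 0.939% and 0.497% in WT-labelled libraries, both overlapping. The Ttex shares of Ifitm2, at 1.90% and 1.47% in KO-labelled against 2.34% and 2.42% in WT-labelled libraries, and of Bst2, at 4.02% and 4.06% in KO-labelled against 7.27% and 6.03% in WT-labelled libraries, were lower under the KO label. The Rtp4 share was higher without overlap in all sorted cells, at 0.517% and 0.634% in KO-labelled against 0.511% and 0.358% in WT-labelled libraries, and overlapped in Ttex cells, at 0.567% and 0.823% in KO-labelled against 0.849% and 0.819% in WT-labelled libraries.

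**Figure D2:**
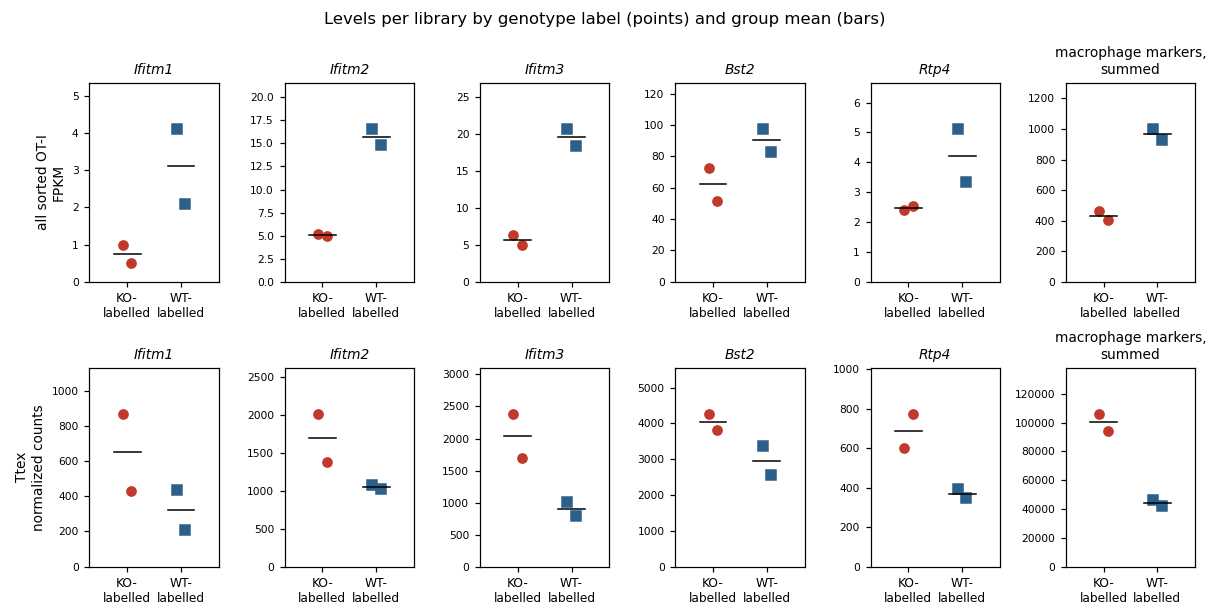
Levels per library of Ifitm1, Ifitm2, Ifitm3, Bst2, Rtp4 and the summed macrophage, monocyte and dendritic cell markers, in FPKM for all sorted OT-I cells (top) and normalized counts for Ttex cells (bottom), with a bar for the mean of 2 libraries. The KO-labelled points lie below the WT-labelled points in every top panel and above them in the bottom panels except Ifitm1, where 432 and 433 nearly meet.

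The remaining membrane-associated members were abundant and were not called. Ly6e, a lipid-anchored antiviral surface protein gene, had the highest level per length of the module in both populations. It was at 345 and 273 FPKM in the KO-labelled libraries, against 415 and 383 FPKM in the WT-labelled libraries of all sorted cells, lower without overlap and not called (log2 fold change -0.38, SE 0.24, limma adjusted p = 0.217), and at 95114 and 76098 normalized counts in the KO-labelled libraries, against 92924 and 79386 normalized counts in the WT-labelled libraries of Ttex cells. Those Ttex values overlapped (log2 fold change -0.01). Lgals3bp, a secreted glycoprotein gene, was at 106 and 85.4 FPKM in the KO-labelled libraries, against 84.3 and 108 FPKM in the WT-labelled libraries of all sorted cells, and at 14242 and 10885 normalized counts in the KO-labelled libraries, against 14119 and 11698 normalized counts in the WT-labelled libraries of Ttex cells. Lgals3bp overlapped in both (log2 fold changes -0.00 and -0.05). Per length, the order of the 5 most abundant members was the same in both populations, Ly6e, Lgals3bp, Ifi27, Bst2 and Ifi35, with means over 4 libraries of 354, 95.9, 89.3, 76.2 and 45.0 FPKM in all sorted cells. In Ttex cells the same means were 22696, 4474, 4189.6, 3878 and 2484 normalized counts per kilobase of merged exons. Ly6e stood clear of all others in every library, while the FPKM of Lgals3bp, Ifi27 and Bst2 overlap across libraries, so their order is not beyond the spread.

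The PARP and DTX3L genes were lower in the KO-labelled libraries of Ttex cells in all 3 cases, without overlap and without a call. Of all genes tested in Ttex cells, 28.2% were lower without overlap. Parp14, an ADP-ribosyltransferase, was at 1778 and 1938 normalized counts in the KO-labelled libraries, against 2366 and 2447 normalized counts in the WT-labelled libraries of Ttex cells (log2 fold change -0.37, limma adjusted p = 0.313). In all sorted cells Parp14 was at 3.25 and 4.01 FPKM in the KO-labelled libraries, against 5.90 and 6.56 FPKM in the WT-labelled libraries, lower without overlap (log2 fold change -0.65, SE 0.17, limma adjusted p = 0.000862). Parp14 was called lower in 11 of 13 alternatives, and the exceptions were centring (limma adjusted p = 0.0542) and upper-quartile scaling (0.0817). Parp9 and Dtx3l, whose products form a complex that acts at damaged DNA and boosts interferon signalling, lie head to head on chromosome 16 and overlap by 682 bases on opposite strands. Strand-specific counting is not stated in the sources used here, and without it the shared reads cannot be told apart. Parp9 was at 2499 and 3149 normalized counts in the KO-labelled libraries, against 3724 and 3911 normalized counts in the WT-labelled libraries of Ttex cells (log2 fold change -0.44, SE 0.15, limma adjusted p = 0.297). Dtx3l was at 4766 and 4476 normalized counts in the KO-labelled libraries, against 5769 and 6198 normalized counts in the WT-labelled libraries of Ttex cells (log2 fold change -0.37, SE 0.12, limma adjusted p = 0.287). In all sorted cells both overlapped between the labels, with Parp9 at 19.2 and 18.8 FPKM in the KO-labelled libraries, against 14.3 and 20.3 FPKM in the WT-labelled libraries (log2 fold change 0.15) and Dtx3l at -0.28 on the log2 scale.

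Of the last 3 members, Xaf1, a pro-apoptotic antagonist of XIAP, was called lower in all sorted cells (30.4% of all genes were). Xaf1 was at 5.03 and 4.19 FPKM in the KO-labelled libraries, against 7.74 and 6.09 FPKM in the WT-labelled libraries (log2 fold change -0.49, SE 0.17, limma adjusted p = 0.0163), without overlap. The call was lost without KO-labelled replicate 2 (limma adjusted p = 0.216) and without WT-labelled replicate 1 (0.304). Ifi27, a small mitochondrial and nuclear membrane protein gene, was at 85.8 and 69.1 FPKM in the KO-labelled libraries, against 107 and 95.6 FPKM in the WT-labelled libraries of all sorted cells, lower without overlap and not called (log2 fold change -0.39, SE 0.23, limma adjusted p = 0.18). Its Ttex values were 7052 and 6114 normalized counts in the KO-labelled libraries, against 6245 and 5174 normalized counts in the WT-labelled libraries, and they overlapped. Ifi35, a leucine zipper protein gene, was at 45.4 and 35.9 FPKM in the KO-labelled libraries, against 50.6 and 48.0 FPKM in the WT-labelled libraries of all sorted cells, lower without overlap (log2 fold change -0.28, limma adjusted p = 0.329). In Ttex cells Xaf1, Ifi27 and Ifi35 had log2 fold changes of 0.15, 0.21 and -0.04.

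**Figure D3:**
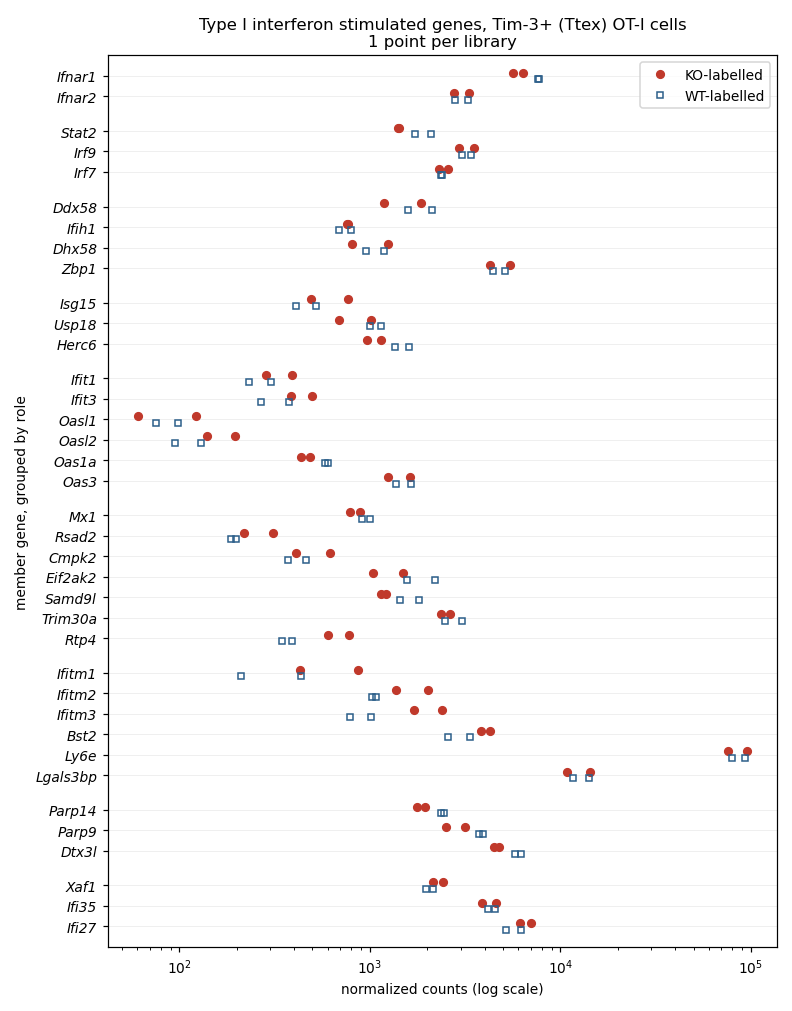
Level of each member in the 4 Ttex libraries, in normalized counts on a log axis and not per length, with filled circles for KO-labelled and open squares for WT-labelled libraries. The KO-labelled points of Rtp4, Ifitm2, Ifitm3 and Bst2 lie above the WT-labelled points and those of Stat2, Herc6, Parp14, Parp9 and Dtx3l below them, while most of the others overlap.

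Over the whole module in all sorted cells, 17 of the 33 tested members (51.5%) were lower in both KO-labelled libraries than in both WT-labelled libraries, against 56.6% of all genes. Only Ifnar1 was higher without overlap (3.03%, against 9.43% of all genes). The count of 10 calls fell to 6 without KO-labelled replicate 2 and to 5 without WT-labelled replicate 1, while the share of all genes called in either direction fell to 20.1% and 16.8%, against 32.8% with all libraries. Outside the IFITM genes the calls held in 4 of 14 alternatives for Bst2, 6 of 14 for Samd9l, 6 of 11 for Isg15, 7 of 14 for Xaf1, 8 of 14 for Zbp1, 8 of 13 for Rtp4 and 11 of 13 for Parp14, and centring and upper-quartile scaling ended each of them. The edgeR quasi-likelihood test on recovered reads called 6 of 37 members lower and 0 higher, where 15.6% of all genes were called lower and 11.5% higher. In Ttex cells limma called 3 of 12559 genes (0.0239%), with 0.0159% higher and 0.00796% lower, and 0 members, with 11 of the 37 members at an unadjusted p under 0.05 (14.2% of all genes were). There edgeR called 0 members, with 11 at an unadjusted p under 0.05 (13.3% of all genes were) and 0.00798% of all genes called in each direction, and DESeq2 called Ifitm3 and Rtp4, both higher (2.55% of all genes were called higher and 0.511% lower). After centring, 0 members were called, with 0.111% of all genes called higher and 0.00796% lower. The Ttex member median was -0.00 on the log2 scale, against -0.06 for all genes. Of the 37, 7 were higher without overlap (18.9%, against 19.9% of all genes) and 10 lower (27.0%, against 28.2%).

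**Figure D4:**
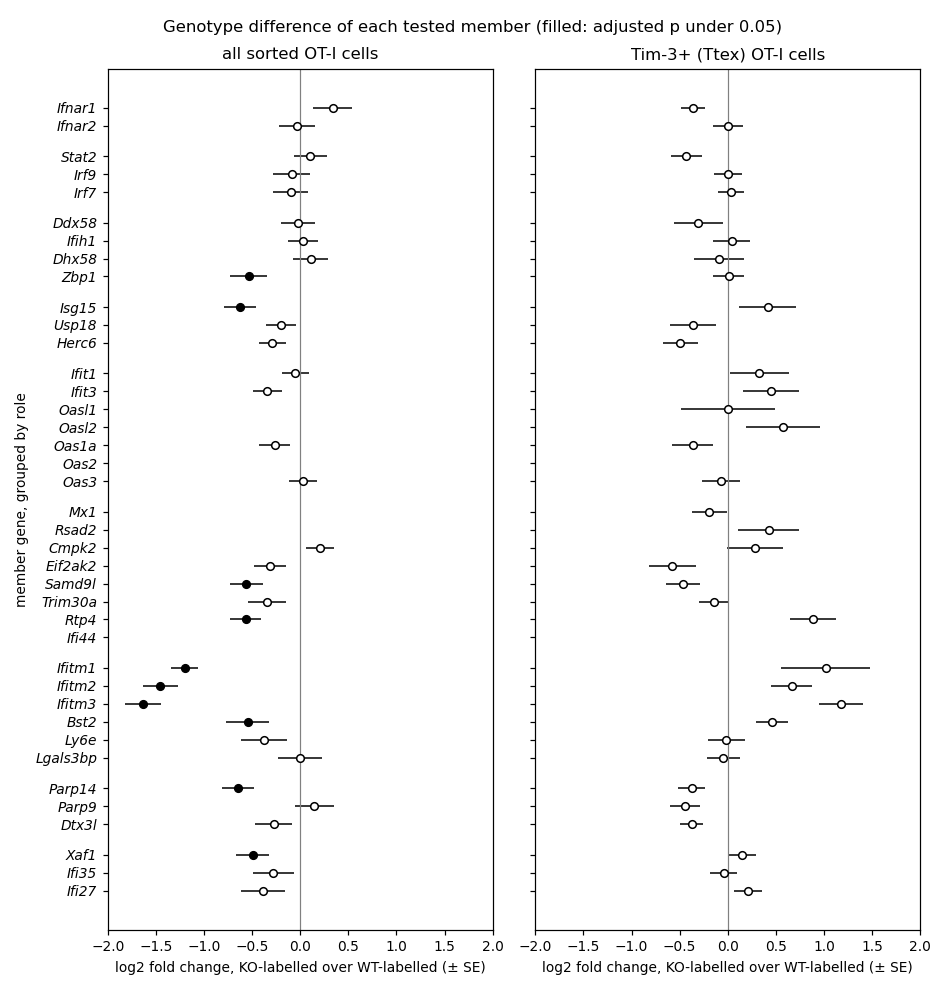
Log2 fold change of KO-labelled over WT-labelled libraries with its SE for each tested member, in all sorted OT-I cells (left) and Ttex cells (right), where filled points have a limma adjusted p under 0.05. The 10 filled points are all on the left panel and all negative, led by Ifitm3 at -1.64, while on the right panel Ifitm3 is the most positive at 1.17.

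Whether the difference between labels itself differed between Ttex and all sorted cells was tested for 33 members in a single limma fit over 8965 genes. The tables were normalized separately and their pseudocounts are in different units, so only the difference of log2 fold changes is compared. It was higher in Ttex cells for 5 members, Ifitm3 by 2.81 (SE 0.28, limma adjusted p = 0.000105), Ifitm1 by 2.22 (SE 0.54, limma adjusted p = 0.0236), Ifitm2 by 2.12 (SE 0.25, limma adjusted p = 0.000599), Rtp4 by 1.45 (SE 0.30, limma adjusted p = 0.0128) and Bst2 by 1.01 (SE 0.28, limma adjusted p = 0.0349), and lower for 0. Of all genes 10.4% were higher and 0.982% lower in the same test. Centring each library turned the split over all genes from 931 higher and 88 lower to 367 higher (4.09%) and 210 lower (2.34%), and the member calls to 3 higher, Ifitm2, Ifitm3 and Rtp4, and 1 lower, Ifnar1 (-0.85, limma adjusted p = 0.0385). With edgeR on recovered reads the 3 IFITM genes and Rtp4 were called higher, Ifnar1 was called lower (-0.90, edgeR adjusted p = 0.0312), and Bst2 missed the threshold (edgeR adjusted p = 0.0824). Of all genes edgeR called 5.46% higher and 2.57% lower. Ifitm2 and Ifitm3 were called in all 13 alternatives. The other 3 calls depended on single libraries: the count was 2 without KO-labelled replicate 2 of all sorted cells, WT-labelled replicate 1 of all sorted cells or WT-labelled replicate 2 of Ttex cells, and 10, of which 2 were lower, without KO-labelled replicate 2 of Ttex cells. The share of all genes called moved with it, at 2.14%, 1.62% and 3.05% in the settings with 2 and 26.2% in the setting with 10, against 11.4% with all libraries. Isg15 missed the threshold at 1.04 (SE 0.34, limma adjusted p = 0.0645), and so did Ifnar1 at -0.70 (SE 0.23, limma adjusted p = 0.0699), the most negative member. The summed myeloid markers and the summed CD8 T cell genes differ between the populations in the same direction as the 5 called members. Their part in these differences was not tested.

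**Figure D5:**
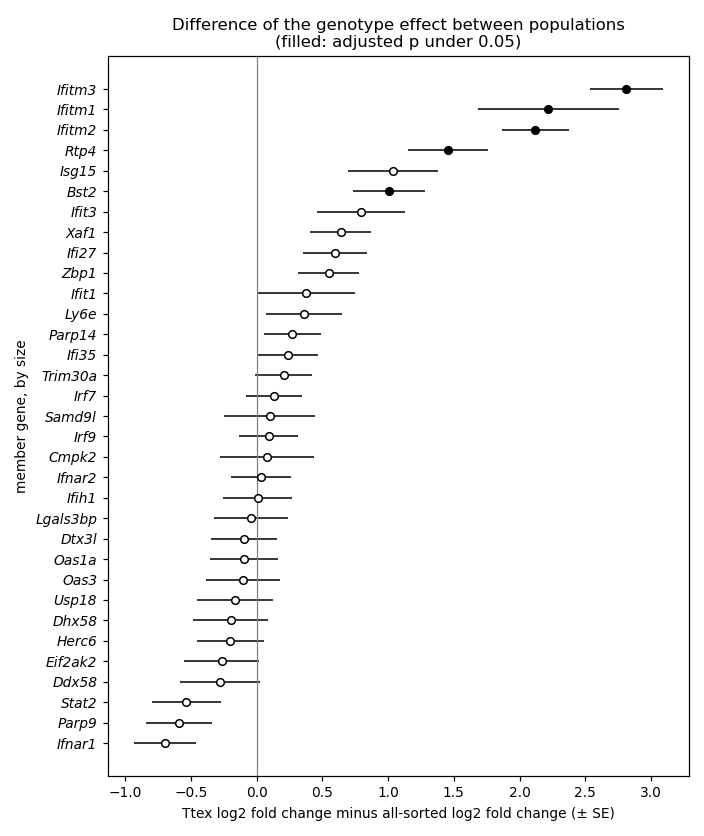
Difference between the Ttex and the all-sorted log2 fold change with its SE for the 33 members tested in both populations, in order of size, where filled points have a limma adjusted p under 0.05. Ifitm3, Ifitm1, Ifitm2, Rtp4 and Bst2 are filled, from 2.81 to 1.01, and Ifnar1 is lowest at -0.70.

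A list of 102 other genes of the pathway was read from the same fits. In all sorted cells 79 were tested, of which 18 were called lower (22.8%, against 30.4% of all genes) and 0 higher, with a median log2 fold change of -0.21. After centring, 8 were higher and 8 lower. The largest calls were Nfkb1, a subunit of NF-kB, Ly6c2 and Ly6a, surface proteins induced by interferon in mouse T cells, and Plac8. Nfkb1 was at 4.99 and 4.33 FPKM in the KO-labelled libraries, against 9.91 and 10.3 FPKM in the WT-labelled libraries (log2 fold change -0.98, limma adjusted p = 5.66e-07). Ly6c2 was at 51.0 and 43.3 FPKM in the KO-labelled libraries, against 98.8 and 82.2 FPKM in the WT-labelled libraries (-0.92, limma adjusted p = 0.000276). Plac8 was at 143 and 109.6 FPKM in the KO-labelled libraries, against 255 and 207 FPKM in the WT-labelled libraries (-0.87, limma adjusted p = 0.00124), and Ly6a at 404 and 326 FPKM in the KO-labelled libraries, against 691 and 593 FPKM in the WT-labelled libraries (-0.82, limma adjusted p = 0.00325). In these 4 genes, picked as the largest calls, both KO-labelled values lay below both WT-labelled values, as in 56.6% of all tested genes. The kinase gene Jak1 was not called, at 55.5 and 60.8 FPKM in the KO-labelled libraries, against 48.3 and 73.0 FPKM in the WT-labelled libraries (log2 fold change -0.03). The interferon regulatory factors Irf1 and Irf3 had log2 fold changes of -0.10 and -0.09 in all sorted cells.

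In Ttex cells 0 of 89 tested pathway genes were called, with 9 at a limma unadjusted p under 0.05 (14.2% of all genes were), 7 by edgeR (13.3%), and a median log2 fold change of -0.05. DESeq2 called 2 of them. Jak1, Irf1 and Irf3 had log2 fold changes of -0.30, -0.19 and 0.01. Of the 9 interferon ligand genes among the pathway genes, the 7 of type I (Ifnb1, Ifna1, Ifna2, Ifna4, Ifna5, Ifnk and Ifne) are not listed for either population. Ifnl2 and Ifnl3 are not listed for Ttex cells. The type III ligand genes Ifnl2 and Ifnl3 stood under 1 FPKM in all sorted cells and were not tested, with Ifnl2 at 0.730 and 0.552 FPKM in the KO-labelled libraries, against 0.0737 and 0.0711 FPKM in the WT-labelled libraries. The low Ifnl2 values were higher without overlap in KO-labelled libraries, and they rest on few reads.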

How the data were processed

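Polyadenylated RNA was sequenced in 8 libraries, 2 per group. Per the submitters' processing notes the build was mm10, and the tools named are RSEM, featureCounts, Bowtie2, Trim Galore 0.4.4 and DESeq2. The authors deposited 1 table per population. For all sorted OT-I cells the authors' deposited values have the form of FPKM, a unit the header does not name. Multiplying them by merged exon length (GENCODE M21) and 1 divisor per library gave whole reads within 0.1 for 98.3 to 98.4% of a library's values. That share is over values above 0 and under 1000 reads. Recovered reads were kept for 16972 of the 17495 genes, without Isg15, and the read totals of all sorted cells cover those genes only. The same table holds, per the file headers, the authors' DESeq2 log2 fold changes and p-values, used here where named, and their test score, not used. For Ttex cells the deposited signal is normalized counts, that is counts divided by 1 size factor per library. There 100% of values lay within 0.01 of a whole read after 1, apparently added before division (173 rows stood at exactly 1 step), was subtracted.

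Since neither table holds counts, KO-labelled over WT-labelled libraries were compared by limma-trend (limma 3.58.1 in R 4.3.3, two-sided) on log2(value + 1). All genes averaging 1 FPKM or 10 normalized counts or more entered, and p-values were adjusted by Benjamini-Hochberg (threshold 0.05). Fold changes on this scale understate the change of genes with low values. The prior degrees of freedom were 4.48 for Ttex and infinite for all sorted cells. The difference between populations was tested in 1 fit of all 8 libraries. Alternatives were another pseudocount, other filters, centring, upper-quartile scaling, a replicate block, no trend, edgeR 4.0.16 and DESeq2 1.42.0 on recovered reads, the authors' calls, and each library left out.

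The members and gene lists were chosen with earlier results of these data known. Named with every library's value were Ifnar1, Ifnar2, called members, the 5 with the highest mean and the 3 largest changes per direction in each table, and of other pathway genes up to 4 called per direction with Irf1, Irf3 and Jak1 (1 further gene named by this rule is not reported here); further members were added after their values were seen. Symbols were matched through RefSeq synonyms. Promoter windows are RefSeq sequences of GRCm38.p6.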

Additional observations from a re-analysis of the deposited data

Results flagged for a closer look

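For 5 members the difference between KO-labelled and WT-labelled libraries itself differed between Ttex and all sorted OT-I cells, in the limma test of that difference over all 8 libraries. The Ttex log2 fold change minus the all-sorted one was 2.81 for Ifitm3, 2.22 for Ifitm1, 2.12 for Ifitm2, 1.45 for Rtp4 and 1.01 for Bst2. Each of the 5 was called lower in all sorted cells, and in Ttex cells each had a positive log2 fold change that limma did not call. By the size of the difference Ifitm3 was 15th, Ifitm1 37th, Ifitm2 39th, Rtp4 180th and Bst2 645th highest of the 8965 genes tested. The summed macrophage, monocyte and dendritic cell markers had the same pattern, lower in KO-labelled libraries of all sorted cells and higher in those of Ttex cells. So had the summed CD8 T cell genes, and the part of either sum in the differences was not tested.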

How the results depend on the processing

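Ifitm1, Ifitm2 and Ifitm3 were called lower in all sorted cells under every alternative in which they were tested, and no member's call reversed under any alternative. For all sorted cells the genes called, 3144 of 9574 tested, became 1626 of 6007 with a 5 times higher filter. With upper-quartile scaling they became 1674 of 9574. Members called, 10 of 33 tested, became 5 of 20 with the higher filter, 5 of 33 after centring and 4 of 33 with upper-quartile scaling. They became 6 of 37 with edgeR, 4 of 37 with DESeq2 and 5 of 38 in the authors' deposited table. The share of all genes called moved too, from 32.8% to 27.1%, 22.6%, 17.5%, 27.1%, 18.6% and 17.3% in that order. The member median, -0.28, became -0.03 after centring, -0.07 with upper-quartile scaling and -0.17 with edgeR. Pathway genes called, 18 of 79 tested, became 10 of 64 with the higher filter. Other cell markers called, 26 of 33 tested, became 13 of 14, since that filter left fewer genes to test. Leaving out each library gave 1602 to 2726 genes, 5 to 9 members, medians of -0.31 to -0.21, 7 to 16 pathway genes (7 without WT-labelled replicate 1) and 18 to 23 markers.

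For Ttex cells 3 genes were called, against 5 with a pseudocount of 10, 0 without a filter, 17 with the higher filter, 15 after centring, 15 with upper-quartile scaling, 0 without a trend and 383 with DESeq2. DESeq2 called 2 members and 2 pathway genes where limma called 0 of either. Other cell markers called, 1, became 3, 0, 8, 8, 8 and 0 in that order of limma settings, 0 with edgeR and 33 with DESeq2. Leaving out each library gave 0 to 26 genes, 0 to 0 members, 0 to 0 pathway genes, 0 to 8 markers and member medians of -0.16 to 0.12. Members whose label difference differed between populations, 5, became 3 without a filter and ranged from 2 to 10 with 1 library left out.

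Replicate numbers are shared by the groups, but no label ties same-numbered libraries together, and with 2 pairs the numbers share only a number; the deviations of same-numbered libraries correlated at 0.299 in all sorted and 0.139 in Ttex cells. With a replicate block the members called were 12 in all sorted cells (3836 of all genes) and 3 in Ttex cells, namely Ifitm3 and Bst2 higher (limma adjusted p = 0.00414 and 0.0446) and Ifnar1 lower (0.0481), with 844 genes, 5 pathway genes and 29 markers called in Ttex cells. In the difference between populations the block gave 10 members, 9 higher and 1 lower, and 1993 genes, against 1019 without it. The causes of these shifts were not tested. Members under 1 FPKM in all sorted cells, 5 of 38, rest on few reads and were not tested there. Ifitm1, which was tested there, also rests on few reads.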
